A study of Mus musculus with 614 samples.

Results

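The interferon-induced transmembrane (Ifitm) gene family of the mouse was followed in single bone marrow and blood cells. The members, Ifitm1, Ifitm2, Ifitm3 and Ifitm6, were chosen by symbol, as 4 of the 43280 symbols in the deposited expression table, with earlier results of these cells known. Their levels between the sort gates are therefore given as a description, with no test. IFITM proteins are small membrane proteins that sit in the plasma membrane and in endosomes, where they hinder the fusion of enveloped viruses with the cell. They are classic products of interferon signalling, but stem and progenitor cells are also known to carry them without added interferon. IFITM3 acts mainly in late endosomes, IFITM1 lies more at the cell surface, and IFITM2 is the closest relative of IFITM3, while less is known of IFITM6, a rodent member found in myeloid cells.

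The study asked where plasmacytoid dendritic cells (pDC), the dendritic cells that make type I interferon, come from. Full-length mRNA of 614 single cells was sequenced after microfluidic capture, and the cells came from untreated adult C57BL/6J mice of 7 to 10 weeks. There were 12 sort gates, 11 from bone marrow with 598 cells and 1 from blood. All gates excluded cells with lineage markers (Lin-).
The gates were blood pre-DC, the circulating dendritic cell precursors (16 cells, Flt3+CD11c+ and negative for MHCII, CD172α and B220); pDC (27 cells, B220+SiglecH+); LMPP, the lymphoid-primed multipotent progenitors (65 cells, c-Kit+Sca-1+CD34+ with intermediate CD16/32, CD127-); pre-pro-B cells (30 cells, Flt3+B220+CD43+CD93+CXCR4+IL7R+ with low CD117 and CD24); and CLP, the common lymphoid progenitors (48 cells, CD127+Flt3+CD34+Thy-1- with low c-Kit and Sca-1). The myeloid gates were cMoP, the common monocyte progenitors (66 cells, CD115+c-Kit+, high Ly6C, negative for Flt3 and CD11b); GMP, the granulocyte and macrophage progenitors (51 cells, c-Kit+CD34+Sca-1- with high CD16/32); and CDP, here the CD115- common dendritic progenitors (58 cells, Flt3+IL7R-CD11c-MHCII- with intermediate c-Kit).
Marrow pre-DC, stained like the blood pre-DC, were divided according to surface SiglecH and Ly6C. The resulting gates were SiglecH+Ly6C+ (45 cells), SiglecH+Ly6C- (70 cells), SiglecH-Ly6C+ (68 cells) and SiglecH-Ly6C- (70 cells).

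No label ties a cell to an animal, so each gate counts as 1 sample. The SD values below are over cells and the 95% Clopper-Pearson intervals cover counting error only. Values are TPM, transcript shares scaled for transcript length and for each cell's total. They carry no read depth, so the depth behind a 0 is unknown. Cells had up to 9977 genes at 1 TPM or more, with gate medians from 3280 in CLP to 6671 in cMoP. The libraries of CLP, pre-pro-B and GMP were numbered in a single unbroken series, as were those of CDP with 24 of the 27 pDC. Those of SiglecH+Ly6C+ were numbered with 51 of the SiglecH+Ly6C- cells, and those of SiglecH-Ly6C- with the other 19. Blood pre-DC, LMPP, SiglecH-Ly6C+ cells and cMoP had a series apiece, so gate and series cannot be told apart for them.

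The gates were compared with marker lists by the mean log2(TPM + 1) over each list. The pDC list averaged 7.09 ± 1.18 in pDC and 6.77 ± 0.99 in pre-pro-B cells, against 1.07 ± 0.75 in LMPP. The B lineage list was low throughout. Its mean was highest in the pre-pro-B gate, at 0.83 ± 0.89, followed by CLP at 0.75 ± 0.84. Pre-pro-B cells thus carried pDC markers at about the level of pDC and few B lineage transcripts. The monocyte list was highest in cMoP, at 6.24 ± 1.06, and in GMP, at 5.71 ± 1.53. The T and NK cell list stayed at a mean of 1.22 or less in every gate, and those of neutrophils at 0.52 or less.

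The 4 genes lie within 63.09 kb of chromosome 7 (GRCm38, GENCODE release 21), in the order Ifitm2 (chr7:140954837-140955987, minus strand), Ifitm1 (chr7:140967221-140969825, plus strand), Ifitm3 (chr7:141009586-141010770, minus strand) and Ifitm6 (chr7:141015699-141017924, minus strand). The start regions of the 4 genes are shown side by side, since the members are interferon-induced genes of 1 cluster whose levels are compared below. Each line runs from 120 bases before the RefSeq start site to 30 bases after it (RefSeq, GRCm38.p6), 5′ to 3′ on the gene's own strand. The stretches are chr7:140967956-140968105 (Ifitm1, plus strand), chr7:140955932-140956081 (Ifitm2, minus strand), chr7:141010715-141010864 (Ifitm3, minus strand) and chr7:141016863-141017012 (Ifitm6, minus strand). Capitals mark matches, on either strand, to GAAANNGAA, a short form of the interferon-stimulated response element, and to TTCNNNGAA, the gamma-activated site to which STAT dimers bind.
Ifitm1: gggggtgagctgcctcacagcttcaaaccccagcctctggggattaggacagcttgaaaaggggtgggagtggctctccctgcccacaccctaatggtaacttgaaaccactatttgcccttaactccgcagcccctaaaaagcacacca
Ifitm2: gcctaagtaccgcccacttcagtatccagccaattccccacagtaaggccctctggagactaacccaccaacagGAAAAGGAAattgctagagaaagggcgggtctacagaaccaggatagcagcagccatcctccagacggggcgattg
Ifitm3: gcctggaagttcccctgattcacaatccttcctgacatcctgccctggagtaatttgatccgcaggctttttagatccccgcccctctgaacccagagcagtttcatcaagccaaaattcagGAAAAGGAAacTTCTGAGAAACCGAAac
Ifitm6: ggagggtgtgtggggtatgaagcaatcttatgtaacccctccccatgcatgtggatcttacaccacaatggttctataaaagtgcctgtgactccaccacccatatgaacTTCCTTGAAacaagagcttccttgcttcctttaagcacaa

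The Ifitm2 window held GAAANNGAA at bases -46 to -38, counted from the start site. The Ifitm3 window held it at 3 to 11 and again at 20 to 28, with a TTCNNNGAA at 14 to 22 that overlaps the second match. The Ifitm6 window held TTCNNNGAA at -10 to -2, and the Ifitm1 window held neither in its 300 bases. The Ifitm1 and Ifitm6 windows lie wholly inside the GENCODE gene spans given above, downstream of the gene starts there. A single start site was read per gene, so matches at other start sites were not looked for. Of 32851 RefSeq promoters of 300 bases, 8.56% held GAAANNGAA and 8.30% held TTCNNNGAA. A match describes these letters and is no measured binding site.

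Ifitm3 reached the highest TPM of any member in a single cell. It was highest in blood pre-DC, with 0 TPM in the lowest cell, a mean of 4853 TPM, 13 of 16 cells at 1000 TPM or more and 12973 TPM in the highest, and in SiglecH-Ly6C+ marrow pre-DC, with a median of 1799 TPM and up to 11436 TPM. LMPP followed with a median of 828.3 TPM, then GMP with 591.3 TPM. In cMoP 72.7% of cells reached 100 TPM, and the mean was 335.9 TPM. At the other end, the medians were 0 in pDC, pre-pro-B, SiglecH+Ly6C+ and SiglecH+Ly6C- cells. The ranges overlapped, since every gate held cells at 0 TPM. What separated gates was the share of cells at 100 TPM or more: 91.2% of SiglecH-Ly6C+ cells (62 of 68, interval 81.8% to 96.7%) and 90.2% of GMP, but 11.4% of SiglecH+Ly6C- cells, 1 of 30 pre-pro-B cells and 1 of 27 pDC.

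Ifitm2 was close to uniform in GMP and LMPP. Every GMP expressed it, between 213.7 and 2025 TPM with a median of 1260 TPM, and its SD of 0.64 around a mean of 10.19 on the log2(TPM + 1) scale was the smallest of any member in a gate where its median was above 0. Every LMPP had at least 41.7 TPM (median 1110 TPM, highest 3548 TPM). Blood pre-DC had a median of 1370 TPM, cMoP 707.9 TPM, SiglecH-Ly6C+ cells 642.3 TPM, CLP 296.7 TPM and CDP 230.1 TPM.
CLP and CDP were mixed rather than low throughout: 62.5% of CLP (30 of 48) and 58.6% of CDP (34 of 58) reached 100 TPM, while 10 CLP and 13 CDP read 0. In pDC no cell of 27 reached 10 TPM, which allows a share of up to 11.1%, and the highest pDC had 5.33 TPM. Pre-pro-B cells had a median of 4.11 TPM, with 18 of 30 cells at 1 TPM or more but 7 at 10 TPM or more.

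Ifitm1 was found mainly in LMPP and GMP. It had a median of 667.9 TPM in LMPP (0 to 4310 TPM) and 89.9 TPM in GMP (0 to 2147 TPM), and a median of 0 in the other 10 gates. At 1 TPM or more it was found in 80.0% of LMPP (interval 68.2% to 88.9%) and 74.5% of GMP, against 27.1% of CLP, 25.8% of cMoP and 18.97% of CDP. The CLP were of 2 kinds: 35 of 48 read 0, whereas 10 had 100 TPM or more and 4 of those had 1000 TPM or more, up to 2750 TPM. As a result the mean TPM of CLP, 218.2, was not below that of GMP, 203.0, although far fewer CLP carried the transcript. Among the pre-DC and pDC gates, the SiglecH-Ly6C+ cells had Ifitm1 most often, in 10 of 68 cells.

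Ifitm6 was highest in blood pre-DC and SiglecH-Ly6C+ cells, with GMP next. It read 0 in all 65 LMPP, which allows a share of up to 4.62%, and in all 27 pDC. Blood pre-DC carried it in 62.5% of cells (10 of 16, interval 35.4% to 84.8%), with a median of 101.1 TPM and up to 5630 TPM. In SiglecH-Ly6C+ cells it was found in 48.5% (33 of 68), with up to 1593 TPM, in GMP in 33.3% and in cMoP in 22.7%. Of the other marrow pre-DC, 15.6% of SiglecH+Ly6C+, 12.9% of SiglecH-Ly6C- and 1 of 70 SiglecH+Ly6C- cells had it. CLP, CDP and pre-pro-B cells had it in 1 of 48, 3 of 58 and 1 of 30 cells.

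Gates next to each other in the order of mean log2(TPM + 1) differed by less than 1 pooled SD over cells for all 4 members, so the order of neighbours is not fixed by these cells. The other family rows were sparse. Ifitm7 reached 1 TPM in at most 31.2% of a gate's cells (blood pre-DC) with no gate mean above 1.05 on the log2 scale. Ifitm10 reached it in at most 22.7% (cMoP), and Ifitm5, the bone-forming member of the family, in at most 2 cells of a gate.

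**Figure D1:**
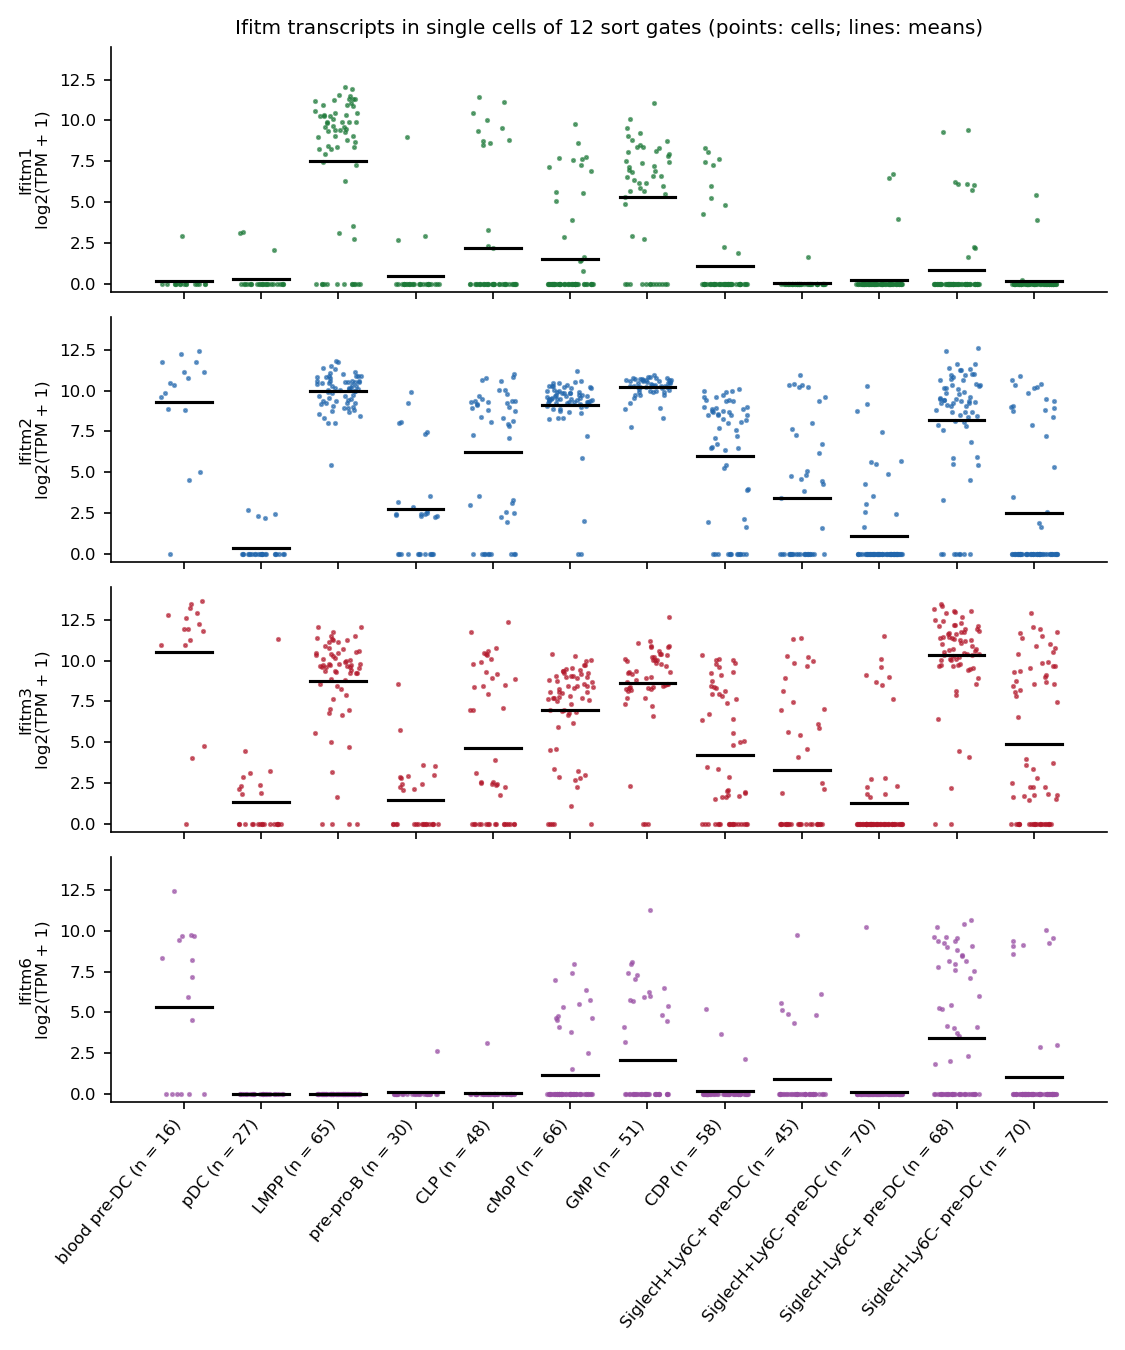
Each point is a cell, placed by its log2(TPM + 1) of Ifitm1, Ifitm2, Ifitm3 or Ifitm6 (rows) in each of the 12 sort gates (columns, with the number of cells), and black lines are gate means. Ifitm2 forms a tight band in GMP around 10.19, while Ifitm3 in CLP, CDP and SiglecH-Ly6C- cells is spread from 0 to above 10. In SiglecH-Ly6C+ cells only 2 of 68 read 0 for Ifitm3.

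Summed over the 4 members, the median cell held 6574 TPM in blood pre-DC, 2757 TPM in LMPP, 2473 TPM in SiglecH-Ly6C+ cells, 2280 TPM in GMP and 1129 TPM in cMoP. The sum was 578.6 TPM in CLP, 365.8 TPM in CDP and 188.9 TPM in SiglecH-Ly6C- cells. It was 18 TPM in SiglecH+Ly6C+ cells, while pre-pro-B cells had 7.18 TPM. The median sum was 2.73 TPM in pDC and 0 in SiglecH+Ly6C- cells. Family transcripts thus reached at least 2473 TPM in the median cell at both ends of the map, in multipotent progenitors and in SiglecH-Ly6C+ and blood dendritic precursors, and close to none in pDC, pre-pro-B and SiglecH+Ly6C- cells, which were also the gates highest in the pDC list.

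The family's makeup differed between these gates. LMPP typically carried 3 members at once: 42 of 65 had Ifitm1, Ifitm2 and Ifitm3 together at 100 TPM or more. GMP were split between that set (19 of 51) and Ifitm2 with Ifitm3 alone (21 of 51). In cMoP the pair of Ifitm2 and Ifitm3 was the most frequent set, in 39 of 66 cells. SiglecH-Ly6C+ cells had the pair in 29 of 68 and the pair with Ifitm6 in 19 of 68, and 7 of 16 blood pre-DC had the pair with Ifitm6. No member reached 100 TPM in 26 of 27 pDC, 59 of 70 SiglecH+Ly6C- cells and 23 of 30 pre-pro-B cells, against 14 of 48 CLP and 20 of 58 CDP.

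**Figure D2:**
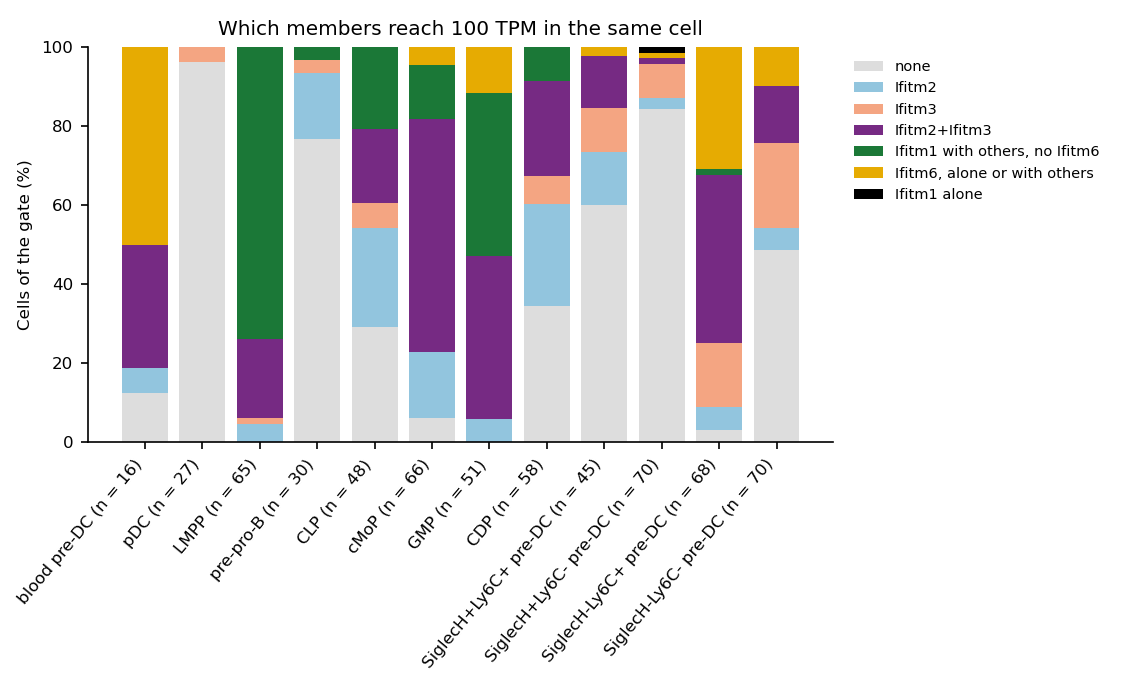
Stacked bars give the percent of each gate's cells in which the named members reach 100 TPM or more, with the number of cells under each gate. Green (Ifitm1 with others) fills most of LMPP, yellow (Ifitm6) is widest in blood pre-DC and SiglecH-Ly6C+ cells, and grey (no member) covers 26 of 27 pDC.

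Ifitm3 mostly exceeded Ifitm2 in blood, SiglecH-Ly6C+ and SiglecH-Ly6C- pre-DC, and Ifitm2 mostly exceeded Ifitm3 in GMP and cMoP. In cells with both at 100 TPM or more, the median log2 ratio of Ifitm3 to Ifitm2 was 1.06 ± 0.92 in blood pre-DC (Ifitm3 higher in 12 of 12 cells) and 1.42 ± 1.10 in SiglecH-Ly6C+ cells (46 of 50). In SiglecH-Ly6C- cells the ratio was 1.71 ± 1.72 (10 of 13). It was -1.05 ± 1.06 in cMoP (Ifitm3 higher in 7 of 48) and -1.09 ± 1.29 in GMP (14 of 46). LMPP, at -0.12 ± 1.42, held cells of both kinds, with Ifitm3 higher in 24 of 55. So did CDP, at 0.15 ± 1.46 (9 of 17), and SiglecH+Ly6C+ cells, at 0.25 ± 1.05 (4 of 6). Over the 38 CDP with either gene at 100 TPM or more, the median was -1.82.
Sequence shared between transcripts bears on this ratio. Of the Ifitm2 transcript, 59.9% lie in stretches of 50 bases that also occur in another gene of GENCODE release 21, Gm11951, Gm8865 and the overlapping gene Gm45717 among them, and 10.5% in stretches shared with Ifitm3. For Ifitm3 the share was 17.9%, for the Ifitm1 transcripts 21.2% to 33.4%, and for Ifitm6 it was 0. Of the Ifitm1 transcripts, 7.3% to 11.4% lay in stretches shared with Ifitm3, and none in stretches of 50 bases shared with Ifitm2. Gm11951 reached 1 TPM in at most 15.7% of the cells of a gate and 120.6 TPM in its highest cell, and Gm8865 in at most 8.82%. How the authors' estimation divided such reads was not tested. Levels of Ifitm2, and with smaller shares those of Ifitm1 and Ifitm3, are uncertain in this respect, as are the rank correlations between them given below.

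**Figure D3:**
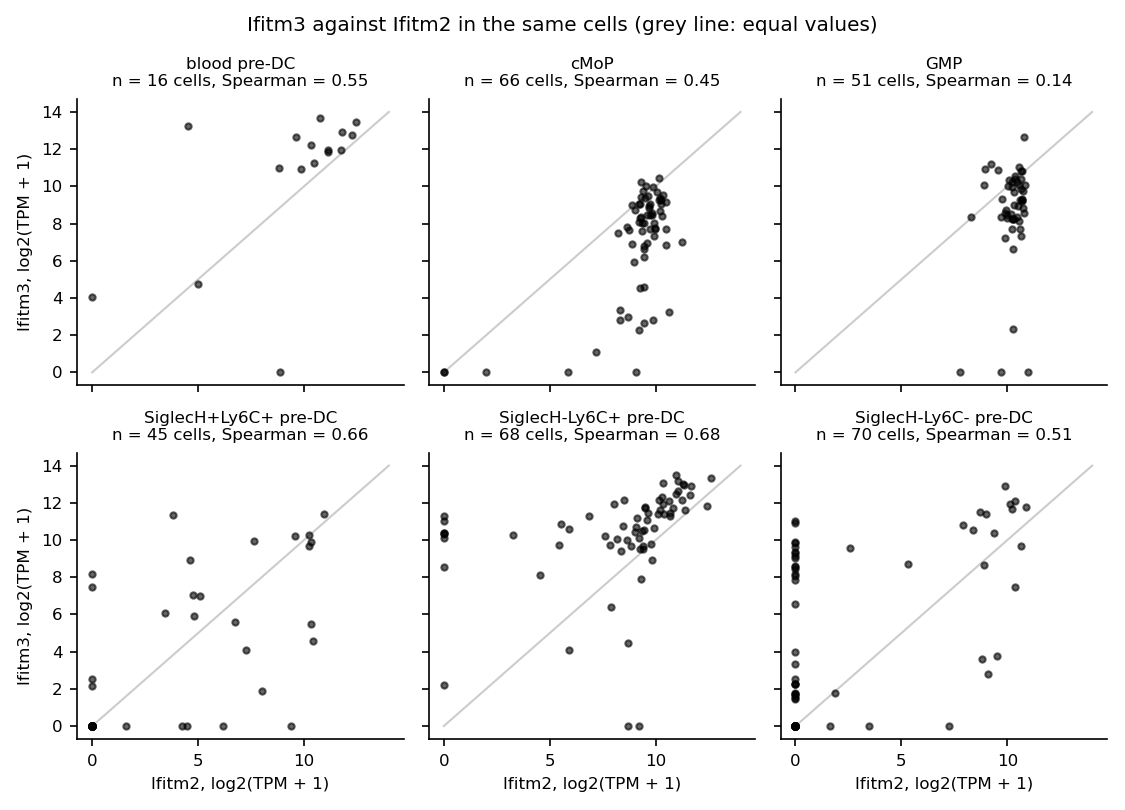
Ifitm3 is plotted against Ifitm2, both as log2(TPM + 1), with 1 point per cell in 6 gates, and each title gives the number of cells and the Spearman correlation. Points of blood pre-DC and SiglecH-Ly6C+ cells lie mostly above the grey line of equal values, and those of cMoP and GMP mostly below it.

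Differences between gates are given on the log2(TPM + 1) scale, as the mean of the gate named first minus that of the other, and a difference of 2 or more (4-fold) is called past the fold. Beside each count of members stands the percent of the 12660 genes found in at least 20% of some gate's cells that were past the fold in either direction. Comparisons that have a gate in common share its cells.

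The lymphoid branch was compared first, CLP with GMP, the split the study's title turns on. All 4 members were lower in CLP, against 18.3% of genes past the fold and a median of -0.65 over all genes. The count was 2 with a pseudocount of 10 (Ifitm2 and Ifitm3) and 1 on log2 mean TPM (Ifitm6), where Ifitm1 was 0.10 higher in CLP. Lower in CLP past the fold were also 6 of 8 monocyte, 5 of 6 granule, 7 of 10 S phase and 8 of 10 G2 and M genes, and their part in the result was not tested. Ifitm2 averaged 6.20 ± 4.07 in CLP and 10.19 ± 0.64 in GMP, a difference of -3.98. Ifitm3 averaged 4.65 ± 4.44 in CLP and 8.65 ± 2.67 in GMP (-4.00). Ifitm1 averaged 2.17 ± 3.96 in CLP and 5.34 ± 3.49 in GMP (-3.16), a direction that holds for the log2 means but not for the mean TPM given above, on which the difference is 0.10. Ifitm6 averaged 0.06 ± 0.45 in CLP and 2.10 ± 3.18 in GMP (-2.04). The differences of Ifitm2 and Ifitm3 exceeded the pooled SD over cells, and those of Ifitm1 and Ifitm6 did not.
Few other interferon-stimulated genes were past the fold: of 26 measured genes of a list of 28 without Ifitm members, 1 was past the fold upward (Ifi27l2a, a mitochondrial interferon-induced protein, 3.79) and 1 downward (Samhd1, a dNTP hydrolase that restricts viruses, -2.55), with a list median of -0.12. All 10 interferon receptor and signalling genes were lower in CLP, 2 past the fold: the interferon gamma receptor genes Ifngr1 (-5.46) and Ifngr2 (-3.37). That count is near the share over all genes, of which 18.3% were past the fold, 2239 downward and 76 upward.

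LMPP are generally placed upstream of both. Against CLP, 3 members were higher in LMPP past the fold (8.48% of genes): Ifitm1 by 5.37 (7.54 ± 4.20 in LMPP, 2.17 ± 3.96 in CLP), Ifitm3 by 4.12 and Ifitm2 by 3.74, while Ifitm6 was near 0 in both. On log2 mean TPM only Ifitm1 (2.11) remained past the fold. Against GMP, Ifitm2 and Ifitm3 differed by -0.24 and 0.11, within 1 pooled SD, whereas Ifitm1 was 2.20 higher in LMPP and Ifitm6 2.10 lower. Those 2 members past the fold stand beside 29.1% of genes in a comparison whose median over all genes was -0.72. The pooled SD over cells was 3.86 for Ifitm1 and 2.25 for Ifitm6, and neither difference exceeded it. With a pseudocount of 10 neither was past the fold (1.96 and -1.08), and Ifitm6 fell short under 3 other alternatives, at -1.98 with size factors.

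Along the lymphoid side, pre-pro-B cells were below CLP, with 2 of 4 members past the fold against 3.01% of genes. Ifitm2 averaged 2.71 ± 3.14 in pre-pro-B cells and 6.20 ± 4.07 in CLP (-3.49), and Ifitm3 averaged 1.48 ± 2.08 in pre-pro-B cells and 4.65 ± 4.44 in CLP (-3.17). Ifitm1 differed by -1.69 and Ifitm6 by 0.02. The interferon-stimulated list leaned the other way: 17 of 26 genes were higher in pre-pro-B cells, 2 of them past the fold, Bst2 (tetherin, which holds budding viruses at the cell surface and is also on the pDC list, 5.18) and Ifi27l2a (3.78), with a list median of 0.24. The pDC list was past the fold upward in 8 of 9 measured genes. Cd81, a tetraspanin that binds IFITM1 in human cells, was 2.92 lower in pre-pro-B cells.

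pDC were compared with CDP. Ifitm2 averaged 0.36 ± 0.87 in pDC and 5.99 ± 3.77 in CDP, a difference of -5.64, and Ifitm3 averaged 1.32 ± 2.42 in pDC and 4.21 ± 3.91 in CDP (-2.89). Those 2 of 4 members were past the fold, against 6.41% of genes. The difference of Ifitm3 fell short of the fold with a pseudocount of 10 (-1.83) and on log2 mean TPM (-1.10), and 1 pDC had 2562 TPM. Ifitm1 (-0.78) and Ifitm6 (-0.19) were low in both gates. With only the 24 pDC numbered together with the CDP, the differences of Ifitm2 and Ifitm3 were -5.59 and -2.82. In the interferon-stimulated list, 2 of 26 genes were past the fold, both upward, Bst2 (4.67) and Ifi27l2a (2.48), and the list median was -0.08. SiglecH+Ly6C- pre-DC resembled pDC in these genes: no member was past the fold (3.12% of genes were), and the differences of pDC from them were 0.06 for Ifitm1, -0.71 for Ifitm2, 0.04 for Ifitm3 and -0.15 for Ifitm6. On log2 mean TPM 2 of them passed it, since single SiglecH+Ly6C- cells reached 1262 TPM of Ifitm2 and 1198 TPM of Ifitm6.

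Within marrow pre-DC, both surface proteins that split the gates went with Ifitm levels, most of all in comparisons with SiglecH-Ly6C+ cells. Those cells had a library series of their own, so gate and series cannot be told apart in these comparisons. Among Ly6C+ cells, SiglecH+ cells were lower than SiglecH- cells in 3 of 4 members past the fold (0.845% of genes), with differences of -7.00 for Ifitm3, -4.79 for Ifitm2 and -2.54 for Ifitm6. Ifitm3 had a median of 0 TPM in SiglecH+Ly6C+ cells (0 to 2682 TPM) and of 1799 TPM in SiglecH-Ly6C+ cells (0 to 11436 TPM). The pooled SD over cells was 3.499 for Ifitm3. With a pseudocount of 10 the difference of Ifitm6 was -1.55. Lineage lists moved with the members: 4 of 8 monocyte genes (Lyz2 -6.21, F13a1 -4.20) and 3 of 8 conventional dendritic cell genes were past the fold downward, and 5 of 9 pDC genes upward. The monocyte list averaged 3.15 ± 1.11 in SiglecH+Ly6C+ and 5.22 ± 0.89 in SiglecH-Ly6C+ cells. The part of these lists in the result was not tested.
Among Ly6C- cells, the 19 SiglecH+ cells numbered with the SiglecH- cells were lower in Ifitm3 by 2.50 (2.39 ± 3.57 and 4.88 ± 4.62), the only member past the fold (3.43% of genes; -1.73 with a pseudocount of 10), and Ifitm2 and Ifitm6 differed by -0.62 and -0.47. With all 70 SiglecH+Ly6C- cells, the differences were -3.60 for Ifitm3 and -1.42 for Ifitm2. The SiglecH+Ly6C- cells of the 2 library series were themselves unlike at the 1 TPM threshold. There, 9 of 19 in the series shared with SiglecH-Ly6C- cells had Ifitm3 detected, against 6 of 51 in the series shared with SiglecH+Ly6C+ cells. At 100 TPM or more the counts were 4 of 19 (interval 6.1% to 45.6%) and 4 of 51 (2.2% to 18.9%), and these intervals overlap.

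Ly6C+ cells were higher than Ly6C- cells in Ifitm2, Ifitm3 and Ifitm6 on both sides of SiglecH, and in Ifitm1 among SiglecH- cells only. Among SiglecH- cells, Ifitm2 was 5.73 higher in Ly6C+ (8.21 ± 3.49 and 2.49 ± 4.05), Ifitm3 5.44 higher (10.32 ± 2.74 and 4.88 ± 4.62) and Ifitm6 2.43 higher, 3 of 4 members past the fold against 1.37% of genes. Ifitm6 fell short with a pseudocount of 10 (1.36) and on log2 mean TPM (1.48). These SiglecH- gates had separate library series, so gate and series cannot be told apart. Among SiglecH+ cells of a shared library series, Ifitm2 was 2.66 higher in Ly6C+ (3.43 ± 4.05 and 0.77 ± 1.97) and Ifitm3 2.46 higher (3.33 ± 4.12 and 0.87 ± 2.68), 2 of 4 past the fold against 1.29% of genes. With a pseudocount of 10 neither passed it (1.61 for Ifitm2 and 1.41 for Ifitm3), and Ifitm3 did not on log2 mean TPM (1.53). The monocyte list moved with the members: it averaged 5.22 ± 0.89 in SiglecH-Ly6C+ and 3.30 ± 0.83 in SiglecH-Ly6C- cells, and 5 of its 8 measured genes were past the fold upward, led by the factor XIII subunit F13a1 (4.41) and the Fc receptor Fcgr3 (2.83). Its part in the result was not tested. Interferon-stimulated genes were past the fold in 1 of 26, Ifi27l2a (3.17).

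cMoP carried less of the family than GMP, although only Ifitm1 was past the fold (1 of 4, against 12.7% of genes): Ifitm1 averaged 1.49 ± 2.85 in cMoP and 5.34 ± 3.49 in GMP (-3.85), Ifitm3 differed by -1.70, Ifitm2 by -1.10 and Ifitm6 by -0.95. SiglecH-Ly6C+ pre-DC were also sorted as positive for Ly6C. Against them, cMoP were lower in Ifitm3 by 3.37 (6.96 ± 2.96 and 10.32 ± 2.74) and in Ifitm6 by 2.29. Those 2 of 4 members were past the fold, against 14.7% of genes, Ifitm6 at -1.47 with a pseudocount of 10. Ifitm1 and Ifitm2 differed by 0.69 and 0.87. The monocyte list was not lower in cMoP, with 3 of 8 genes past the fold upward and 1 downward.

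Blood pre-DC were compared with the average over the 4 pre-DC gates of marrow, weighted equally. Ifitm3 averaged 10.54 ± 3.97 in blood pre-DC and 4.95 ± 5.03 in marrow pre-DC (5.58 higher), Ifitm2 9.29 ± 3.37 in blood and 3.80 ± 4.48 in marrow (5.49 higher), and Ifitm6 5.32 ± 4.599 in blood and 1.38 ± 3.06 in marrow (3.95 higher). Those 3 of 4 members were past the fold, against 4.89% of genes, and Ifitm1 differed by -0.13. Of the marrow gates, SiglecH-Ly6C+ came closest to the blood cells, with means of 10.32 for Ifitm3 and 8.21 for Ifitm2. The monocyte list was higher too, with 3 of 8 genes past the fold upward, among them lysozyme Lyz2 (6.39), and 1 downward, and the pDC list was lower, with 5 of 9 genes past the fold downward. Tissue, library series and gate cannot be told apart here.

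**Figure D4:**
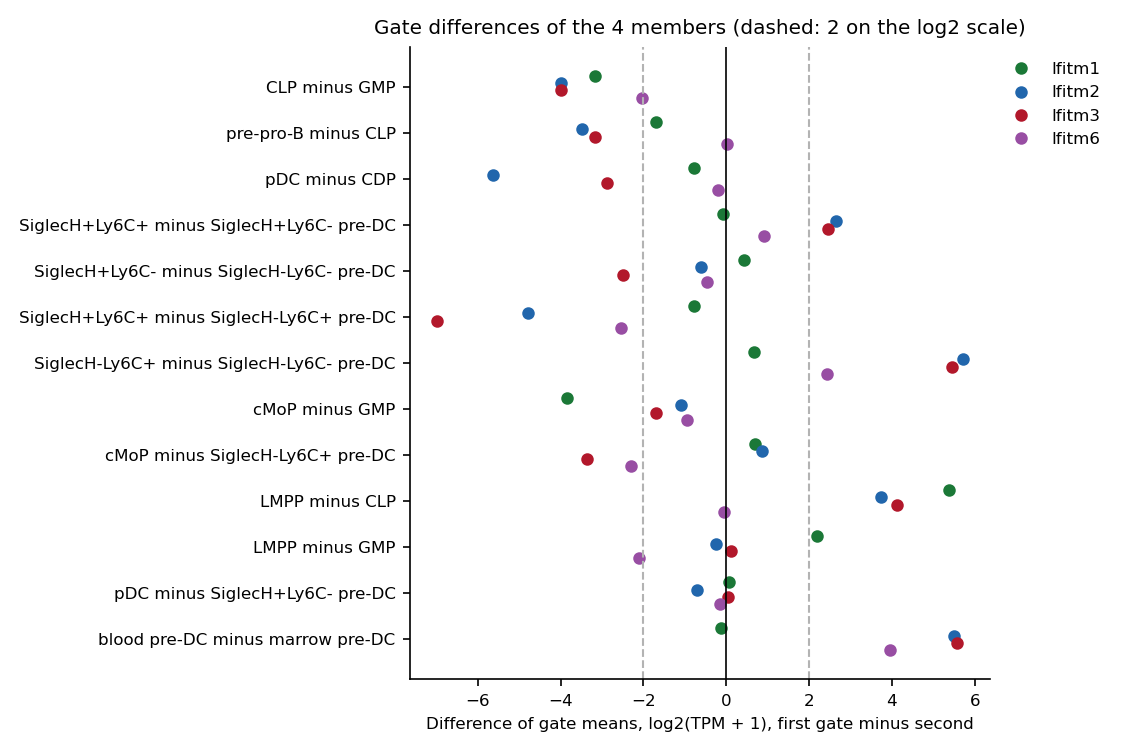
Each dot is the difference of gate means, in log2(TPM + 1), of a member (color) in a comparison (row, the gate named first minus the other), and dashed lines mark a difference of 2 in either direction. Ifitm2 and Ifitm3 move as a pair in most rows, Ifitm1 stands apart in the rows with LMPP and cMoP against GMP, and all dots of pDC minus SiglecH+Ly6C- pre-DC lie near 0.

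Within gates, where the sort no longer separates the cells, Ifitm2 and Ifitm3 had rank correlations above 0 over the cells of 10 of 11 gates, weak in several. The Spearman correlation between them had a median of 0.38 over the 11 gates in which at least 20% of cells had each of them at 1 TPM or more, and it was above 0 in 10. It was highest in SiglecH-Ly6C+ (0.68, 68 cells) and SiglecH+Ly6C+ cells (0.66, 45 cells), followed by blood pre-DC (0.55, 16 cells) and SiglecH-Ly6C- cells (0.51, 70 cells), and lowest in pre-pro-B cells (-0.16, 30 cells), GMP (0.14) and LMPP (0.20). In SiglecH+Ly6C+ cells, 17 of 45 had both at 1 TPM or more and 19 had neither, where the product of the single shares gives 10.3 cells with both. In 5 gates the count did not exceed that product. It was 58 cells against 58.2 in SiglecH-Ly6C+, 14 against 14.1 in blood pre-DC and 7 against 7.8 in pre-pro-B cells. In LMPP (61 against 61) and GMP (48 against 48) it could not, since every cell had Ifitm2 at 1 TPM or more. At 100 TPM or more the count exceeded the product in 8 of 11 gates. With ranks adjusted for the number of genes per cell the median over gates was 0.41. These correlations are descriptions over cells that, in 10 of the 12 gates, share a single library series. The 0.28 of SiglecH+Ly6C- cells spans 2 series, with Ifitm2 at 0.77 and 1.87 and Ifitm3 at 0.87 and 2.39 in mean log2(TPM + 1).

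Over all cells of a gate, Ifitm1 went with Ifitm3 more than with Ifitm2, but mostly not over cells with both genes detected. Over the 4 gates with enough cells (LMPP, GMP, CLP and cMoP) the median rank correlation was 0.26 with Ifitm3, above 0 in all 4, and 0.11 with Ifitm2. Restricted to cells with both at 1 TPM or more, it was 0.18, 0.11, 0.70 and 0.29 with Ifitm2 in these gates, in that order. With Ifitm3 it was -0.01, 0.18, 0.43 and 0.08, so only GMP kept the higher value for Ifitm3. The CLP values rest on 11 and 12 cells. The Ifitm1 transcripts share stretches of 50 bases with Ifitm3 but not with Ifitm2, and the part of this in the correlations was not tested. CLP stood out, with 0.52 for Ifitm3 over all 48 cells. Of the 10 CLP with Ifitm1 at 100 TPM or more, 9 had Ifitm3 and 9 had Ifitm2 at that level. The products of the single shares give 4.38 and 6.25 cells. The CLP gate therefore held a small set of cells with Ifitm1, Ifitm2 and Ifitm3 together at 100 TPM or more (8 of 48, beside 8 of 66 cMoP). Next to them were 14 of 48 CLP with no member at that level. Ifitm6 had a median rank correlation of 0.34 with Ifitm3 and 0.28 with Ifitm2 over 4 gates. Over cells with both at 1 TPM or more, the rank correlation with Ifitm3 was -0.09 in GMP, -0.34 in cMoP, 0.31 in SiglecH-Ly6C+ cells and 0.22 in blood pre-DC. Its rank correlation with Ifitm1 was 0.16 in cMoP and -0.17 in GMP.

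Ranked against all other genes within gates, Ifitm3 was the gene most like Ifitm2 (mean rank correlation 0.37 over 11 gates, of 2480 candidates, whose median was 0.03) and the gene most like Ifitm1 (0.30 over 4 gates, of 3774 candidates). Among the next for Ifitm2 was the ion transport regulator Fxyd5 (0.21). For Ifitm3 itself the highest were Fxyd5 (0.27), the surface glycoprotein Cd52 (0.22), the MHC class I light chain B2m (0.20), Naca (0.19) and the calcium-binding S100a6 (0.19), with Ifitm2 not among its candidates because it passed the detection filter in 11 of the 12 gates only. For Ifitm6 they were Cd52 (0.37), Lrrc25 (0.36), Ap2m1 (0.35), Ube2l3 (0.35) and Tmsb4x (0.34), with Ifitm3 at rank 8 and Ifitm2 at rank 10 of 3665.

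Across the 12 gate means, Pearson's r between Ifitm2 and Ifitm3 was 0.90, between Ifitm3 and Ifitm6 0.75, between Ifitm1 and Ifitm2 0.63 and between Ifitm1 and Ifitm6 -0.15. The genes with gate profiles most like Ifitm2 were Nmi, an interferon-induced STAT partner (0.91), Ifitm3 and Lst1 (0.88), then Tcp11l2 (0.88) and the 2′-5′ oligoadenylate synthetase Oas1a (0.865). Ifitm3 went with Ifitm2, Lyz2 (0.88), Ptplad2 (0.85), Nmi (0.85) and Dtwd2 (0.84). Ifitm1 went with Rab38 (0.99), Tmem40 (0.97), Mc5r (0.95), Serpina3g (0.95) and Krt18 (0.95), all highest in LMPP or GMP, and Ifitm6 with Hpgd (0.97), the chemokine Ccl6 (0.96), Abca9 (0.95), the inflammasome gene Nlrp3 (0.94) and Nupr1 (0.94), all highest in blood pre-DC. These r values rest on 12 points and the lists depended on the measure.

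The genes beside the cluster were looked up next. Of 20 genes annotated within 100 kb of it, 6 were found in at least 20% of a gate's cells, and their r with Ifitm3 over the 12 gates ran from -0.68 for the desmosome gene Pkp3 to 0.35 for the proteasome subunit gene Psmd13. Sirt3, a mitochondrial deacetylase gene, had the highest r with Ifitm2, at 0.65.

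Within gates, Ifitm3 had weak positive rank correlations with the other interferon-stimulated genes. Its rank correlation with the mean of the 28-gene list was above 0 in 12 of 12 gates, with a median of 0.22 (0.05 in SiglecH-Ly6C- cells to 0.49 in cMoP). For Ifitm2 the median was 0.10 (above 0 in 9 of 11 gates), for Ifitm6 0.19 (4 of 4) and for Ifitm1 0.04 (2 of 4). Between gates, the list mean ran only from 1.38 ± 0.69 in LMPP to 2.13 ± 0.41 in pre-pro-B cells, the first a gate where Ifitm3 was high and the other a gate where it was low. The higher mean did not come with more list genes. Only 10 of the 28 reached 1 TPM in at least 20% of pre-pro-B cells, against 14 in LMPP.

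The single cell with the highest list mean was then taken in each gate, a choice made after the values were seen. In 4 gates, GMP, SiglecH-Ly6C+, SiglecH-Ly6C- and pDC, that cell was also the highest of its gate in Ifitm3, with 6525, 11436, 7783 and 2562 TPM, against gate medians of 591.3, 1799, 7.55 and 0 TPM. In 8 of 12 gates it was among the 5 highest, and in SiglecH+Ly6C+ and CDP it had 0 and 6.27 TPM. For Ifitm2 the same cell was among the 5 highest in 4 gates and highest in none. It was the highest cell in Ifitm1 in LMPP, with 4310 TPM, and in pre-pro-B cells, with 508.8 TPM, and the highest in Ifitm6 in GMP, with 2503 TPM. The 4 cells that led their gates in Ifitm3 each had fewer genes than their gate's median, for example 3677 against 4222 in SiglecH-Ly6C+ and 3456 against 4177 in SiglecH-Ly6C-.

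The pDC stood far apart from the others of its gate. Its list mean was 5.69, against 2.54 in the next pDC, and 12 of the 28 list genes were highest in it. They included Oasl2 (4351 TPM), Irf7, the master regulator of type I interferon genes (2482 TPM, against at most 539.4 TPM in the other 26 pDC), Zbp1, a nucleic acid sensor (650.1 TPM, against at most 8.45 TPM), Ifi44 (294.2 TPM, against at most 32.7 TPM) and Isg15, a ubiquitin-like protein (134.2 TPM, against at most 0.15 TPM). Not all list genes were high in this cell. Ifit1, Ifit2, Oas1a, Oas2, Oasl1, Rtp4 and Ifi35 read 0 in it, while other pDC reached 654.8 TPM of Oas1a and 971.4 TPM of Ifi35. For Bst2 it ranked 14 of 27. The cell's Ifitm3 level of 2562 TPM compares with at most 21.5 TPM in the other pDC, yet its Ifitm2 was 3.56 TPM and its Ifitm1 and Ifitm6 read 0. Its pDC list mean of 8.05 ranked seventh of 27. Without this cell the difference of Ifitm3 between pDC and CDP was -3.30, when the top cell of CDP was left out too.

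**Figure D5:**
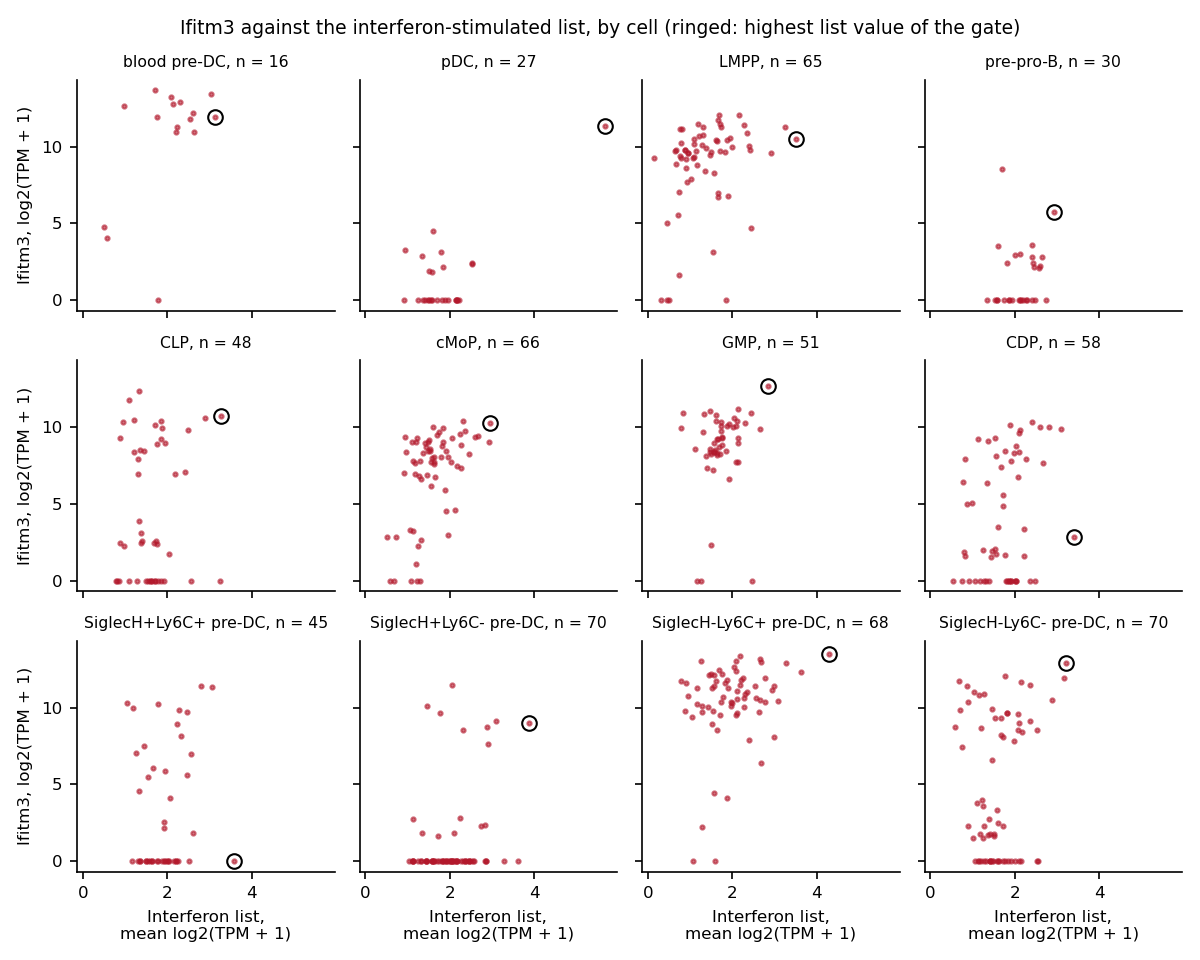
Ifitm3, as log2(TPM + 1), is plotted against the mean log2(TPM + 1) of 28 other interferon-stimulated genes, with 1 point per cell and 1 panel per gate, and a ring marks the cell with the highest list mean. In GMP, SiglecH-Ly6C+, SiglecH-Ly6C- and pDC the ringed cell is also the highest in Ifitm3, and in pDC it stands alone at a list mean of 5.69.

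Lineage lists gave the reverse sign for pDC genes. The rank correlation of Ifitm3 with the pDC list was below 0 in 9 of 12 gates, with a median of -0.33, down to -0.50 in SiglecH+Ly6C+ cells and up to 0.37 in cMoP. For Ifitm2 it was above 0 in 1 of 11 gates, with a median of -0.27. With the monocyte list the medians were 0.31 for Ifitm3 (above 0 in 11 of 12 gates) and 0.24 for Ifitm2 (9 of 11). Ifitm1 had a median of 0.21 with the multipotency list, above 0 in 4 of 4 gates, and of -0.06 with the monocyte list. Lists of T and NK cells, neutrophils and platelets had medians between -0.09 and 0.07 with Ifitm2 and Ifitm3.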

How the data were processed

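Single-cell mRNA libraries were made on a microfluidic capture system with oligo(dT) priming, per the labels' protocols. The deposited table holds 1 TPM value per symbol and cell, made with RSEM 1.2.19 on GRCm38, per the submitters' processing notes; the sources used here give no further steps. TPM totals per cell were 997617 to 1000000, so read depth is unknown, and no count model was used. No doublet caller was run and all 614 cells were kept. Scripts used Python 3.11.15, numpy 2.4.6, pandas 2.3.3 and scipy 1.17.1.

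Gate differences are means of log2(TPM + 1), pseudocount 1, over genes that reached 1 TPM in 20% or more of the cells of any gate (12660 of 43280 symbols). Each gate is 1 sample, so no p-value was computed, and counts of genes past the fold describe these cells. A share of 0 is given with the limit that 3 cells would set. The difference calculation was tested on simulated data. Members and the 18 gene lists were chosen with earlier results of these data known. Named genes were the 4 members, the other Ifitm rows, up to the 2 highest and 2 lowest genes of a list per comparison, and the 5 genes most like each member over gate means (Pearson) and within gates (mean Spearman over at least 3 gates); ribosomal, mitochondrial and predicted genes were left out as candidates by name. The interferon-response genes named in single cells were chosen after their values were seen.

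Alternatives were pseudocounts of 0.1 and 10, log2 of mean TPM, size factors, cells with at least 2000 genes, leaving out the 5% of cells with most genes, and single library series. Shared transcript stretches were read from GENCODE release 21, and promoters of all 4 members were found in the RefSeq table. Protein identity was not analysed here.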

Additional observations from a re-analysis of the deposited data

Results flagged for a closer look

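Ifitm1 was picked out among marrow pre-DC because the same split gave opposite signs in the other pair of gates. SiglecH+ minus SiglecH- cells differed by -0.77 on the log2(TPM + 1) scale among Ly6C+ cells and by 0.11 among Ly6C- cells, and Ly6C+ minus Ly6C- cells differed by -0.21 among SiglecH+ and by 0.67 among SiglecH- cells. The difference of the differences is -0.88 in either reading. It was not tested, since each gate is 1 sample, and it rests on few cells: Ifitm1 reached 1 TPM in 1 of 45 SiglecH+Ly6C+, 3 of 70 SiglecH+Ly6C-, 10 of 68 SiglecH-Ly6C+ and 2 of 70 SiglecH-Ly6C- cells. The other 3 members kept their sign in both readings, with differences of the differences of -3.37 for Ifitm2, -3.40 for Ifitm3 and -1.67 for Ifitm6.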

How the results depend on the processing

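Of 52 member differences, 28 were 2 or more in size, and under 201 alternatives to these the sign was kept in 200 and the size fell under 2 in 25. The exception in sign was Ifitm1 in CLP minus GMP on log2 mean TPM (0.10), where a few CLP with over 1000 TPM carry the mean. On that scale other values moved by more than 1 pooled SD: Ifitm6 in CLP minus GMP (-6.10) and LMPP minus GMP (-6.31); Ifitm1 and Ifitm6 in pDC minus CDP (-3.75 and -0.91), in SiglecH+Ly6C+ minus SiglecH+Ly6C- (-1.37 and 4.63) and, with Ifitm2, in pDC minus SiglecH+Ly6C- (-1.21, -4.18 and -4.58); Ifitm1 in SiglecH+Ly6C- minus SiglecH-Ly6C- (1.98), SiglecH-Ly6C+ minus SiglecH-Ly6C- (3.79) and blood minus marrow pre-DC (-1.40); and Ifitm1 and Ifitm3 in SiglecH+Ly6C+ minus SiglecH-Ly6C+ (-4.58 and -3.39). The cause was not tested beyond the scale itself.

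Counts of members past the fold changed on log2 mean TPM to 1 in CLP minus GMP, 2 in cMoP minus GMP, 1 in LMPP minus CLP and 2 in pDC minus SiglecH+Ly6C-. With a pseudocount of 10 they were 2 in CLP minus GMP, 1 in pDC minus CDP, 0 in SiglecH+Ly6C+ minus SiglecH+Ly6C-, 0 in SiglecH+Ly6C- minus SiglecH-Ly6C-, 1 in cMoP minus SiglecH-Ly6C+ and 0 in LMPP minus GMP. LMPP minus GMP had 1 with size factors, 1 without the cells with most genes and 1 without the top interferon-list cell of each gate, the last an alternative chosen after seeing the data. Size factors moved the median of all genes by 0.15 in pDC minus CDP and 0.12 in pDC minus SiglecH+Ly6C-. The median rank correlation of Ifitm3 and Ifitm6 was 0.0656 over cells with both at 1 TPM or more. Without the top interferon-list cells, rank correlation of Ifitm3 with the list was above 0 in 11 of 12 gates (median 0.19).

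Of the 5 genes most like Ifitm2 and Ifitm6 over gates, 0 were shared between Pearson and Spearman rankings. At 100 bases only the Ifitm2 transcript shared stretches with another gene. No paired analysis was possible because the gates share no replicate numbers that pair cells. Cells are not replicates and most gates hold 1 library series, so the spread between animals is unknown.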
